A study of Rattus norvegicus with 12 samples.

Results

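Proliferating and quiescent cultures of one adult neural stem cell line were compared with no gene knocked down. The comparison rests on 4 of the 12 samples of the series, 2 libraries of control cells grown in proliferating conditions (TAP Ctrl) and 2 libraries of control cells grown in quiescent conditions (iQNP Ctrl). The cells were HCN cells, a line cloned from the hippocampus of adult Fisher 344 rats, so that both groups are 1 clone in culture and not separate animals. TAP Ctrl cells were grown in FGF2 alone, a mitogen of neural stem cells, and are named after transit-amplifying progenitors. iQNP Ctrl cells, for induced quiescent neural progenitors, were grown in FGF2 and BMP4, so FGF2 was common to both groups and BMP4 was the difference between the media. Both groups had been electroporated with the empty vector that served as control for a REST knockdown hairpin. The series also holds 4 libraries of TAP RESTkd and 4 of iQNP RESTkd cells, which carried the hairpin in the same media and share no library with the controls.

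Total RNA depleted of ribosomal RNA was sequenced, and each gene has 1 deposited value per group, in fragments mapped to the gene, scaled to transcript length and to all mapped fragments (FPKM), the authors' estimate over the 2 libraries of that group. Values per library are not used here, so the differences below have no replicate check, no error and no p-value. TAP Ctrl and iQNP Ctrl also came from separate runs of the quantification, so run and medium cannot be told apart. The tables shared 16468 genes, of which 9383 had a mean of at least 1 FPKM over the 2 control values and are called expressed. A difference is given as log2((TAP Ctrl + 1)/(iQNP Ctrl + 1)), which is positive where TAP Ctrl was higher and understates the change of genes with low values. The median of this log2 ratio was -0.02 over the 8943 genes at or above 1 FPKM in TAP Ctrl and in iQNP Ctrl, so the runs lay on nearly the same scale.

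Bone morphogenetic proteins bind receptor kinases that phosphorylate Smad1, Smad5 and Smad9, and these join Smad4 and switch on target genes such as the Id family, whose products hold back proneural factors. In the dentate gyrus BMP signalling keeps radial glia-like stem cells out of the cell cycle, and secreted antagonists such as Noggin release them. In culture, BMP4 added to FGF2 holds adult hippocampal stem cells in an arrested state from which they can return to division.

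The labels were checked on defining genes of each cell type. Of 8 neural stem and progenitor markers, 7 were at 1 FPKM or more in TAP Ctrl and in iQNP Ctrl, among them Sox2, a transcription factor of neural stem cells, at 278 FPKM in TAP Ctrl and 185 FPKM in iQNP Ctrl, and the intermediate filament Nes at 99.8 FPKM in TAP Ctrl and 150.2 FPKM in iQNP Ctrl. The exception was Prom1, which was under 1 FPKM in both. None of 8 microglia markers, 4 endothelial markers and 7 fibroblast and mural markers in the tables reached 1 FPKM in either group, and their summed levels were 0.590, 0.146 and 0.880 FPKM in TAP Ctrl, against 0.568, 0.404 and 1.84 FPKM in iQNP Ctrl. Aif1 and C1qa of the microglia set, Cdh5 and Cldn5 of the endothelial set and Rgs5 of the mural set were listed at 0 in both groups. A listed 0 need not be an absent transcript, since the ribosomal protein genes Rpl9 and Rps12, named after their values were seen, were also listed at 0 in TAP Ctrl and in iQNP Ctrl, and Cldn5, on an unplaced sequence, was at 0 in all 4 groups. Markers of astrocytes and of the oligodendrocyte and neuron lineages were present in both groups and are described below. In such bulk RNA, fewer cells of a type and less RNA per cell cannot be told apart.

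In TAP Ctrl, 570 of the 9383 expressed genes (6.07%) were at least 2-fold higher than in iQNP Ctrl, and 980 (10.4%) were at least 2-fold lower. Of the genes past 2-fold, 63.2% were therefore lower in the proliferating cells. The imbalance was steeper among large differences: 53 genes were at least 4-fold higher and 245 at least 4-fold lower, and 4 were at least 8-fold higher and 76 at least 8-fold lower. The split depended on scaling. When the 2 groups were brought to the same sum of FPKM, which moved every log2 ratio up by about 0.14, 757 genes were higher and 804 lower, so that 51.5% were lower, and with ribosomal proteins left out of the sums 870 were higher and 733 lower, so that 45.7% were lower. A single gene made much of that difference in sum. Rmrp, the RNA of the RNase MRP complex that processes ribosomal RNA, was named after its values were seen and had 19974 FPKM in TAP Ctrl and 85349 FPKM in iQNP Ctrl, which was 3.00% of all FPKM in TAP Ctrl and 11.6% in iQNP Ctrl. With Rmrp left out of the sums the shift was 0.01.

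**Figure D1:**
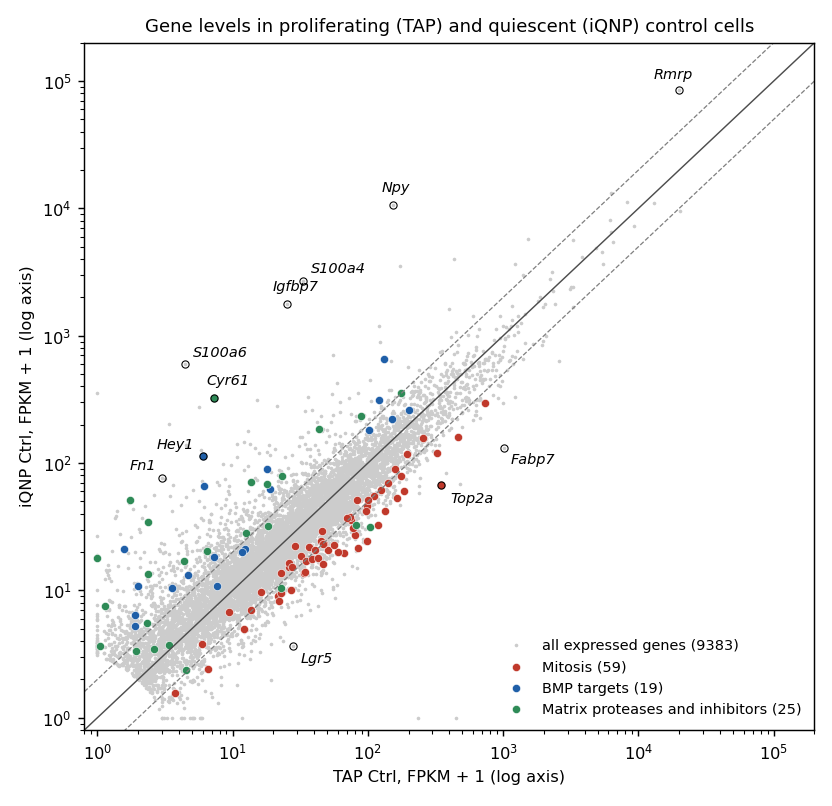
FPKM + 1 of each expressed gene in TAP Ctrl (horizontal, log axis) against iQNP Ctrl (vertical, log axis), 1 point per gene and 1 deposited value per group, with 3 gene lists in colour, equal levels on the solid line and 2-fold differences on the dashed lines. Mitosis genes lie under the solid line, BMP targets above it, and most genes far from it, such as S100a6 with 3.46 FPKM in TAP Ctrl and 598 FPKM in iQNP Ctrl, lie on the iQNP side.

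BMP target genes were lower in the proliferating cells. All 19 expressed members of the list of 22 were lower in TAP Ctrl, 13 of them at least 2-fold, with a median log2 ratio of -1.50 against -0.03 over all expressed genes. Hey1, a transcriptional repressor shared by the Notch and BMP pathways, had 5.05 FPKM in TAP Ctrl and 112 FPKM in iQNP Ctrl, a log2 ratio of -4.22. The homeobox genes Msx2 and Dlx2 followed, with 0.579 and 5.11 FPKM in TAP Ctrl against 20.3 and 65.2 FPKM in iQNP Ctrl. The negative feedback arm of the pathway was low in TAP Ctrl too. The inhibitory Smad6 had 0.990 FPKM in TAP Ctrl and 9.91 FPKM in iQNP Ctrl, its relative Smad7 had 0.909 FPKM in TAP Ctrl and 5.39 FPKM in iQNP Ctrl, and the decoy receptor Bambi had 17.0 FPKM in TAP Ctrl and 88.8 FPKM in iQNP Ctrl. The Id genes were unequal. Id2 stood at 131 FPKM in TAP Ctrl and 652 FPKM in iQNP Ctrl, whereas Id1, Id3 and Id4 lay within 2-fold. Id1 had 200.0 FPKM in TAP Ctrl and 259.7 FPKM in iQNP Ctrl, Id3 had 148 FPKM in TAP Ctrl and 220.4 FPKM in iQNP Ctrl, and Id4 had 102 FPKM in TAP Ctrl and 181 FPKM in iQNP Ctrl.

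The promoters of these genes were searched for GGCGCC, the GC-rich site that Smad1 and Smad5 bind, in windows of 250 bases before to 50 bases after the start site in RefSeq (build GRCr8). The site reads the same on both strands. It was present in 7 of the 15 windows that matched a BMP target (46.7%), against 22.7% of the 6863 windows of expressed genes and 11.8% of all 27457 windows. Among the targets at least 2-fold lower in TAP Ctrl, the 2 with the largest differences whose windows hold it were Bambi at chr17:58820954-58821253 on the minus strand and Smad7 at chr18:71263258-71263557 on the plus strand, shown 5′ to 3′ with the matches in capitals. A match is a description of the letters and no evidence of binding.
Bambi: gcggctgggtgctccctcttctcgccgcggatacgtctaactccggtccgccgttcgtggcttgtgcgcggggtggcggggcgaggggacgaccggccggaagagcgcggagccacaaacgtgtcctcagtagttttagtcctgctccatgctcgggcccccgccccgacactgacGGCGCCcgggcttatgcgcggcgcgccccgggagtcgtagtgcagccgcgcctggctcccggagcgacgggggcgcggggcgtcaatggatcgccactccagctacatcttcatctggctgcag
Smad7: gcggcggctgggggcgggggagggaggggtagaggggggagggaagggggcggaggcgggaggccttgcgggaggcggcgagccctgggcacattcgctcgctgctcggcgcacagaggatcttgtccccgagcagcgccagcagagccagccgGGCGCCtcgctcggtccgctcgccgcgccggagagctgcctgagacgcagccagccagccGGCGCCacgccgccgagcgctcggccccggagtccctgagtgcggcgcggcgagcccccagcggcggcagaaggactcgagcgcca

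Antagonists of BMP signalling were also lower in TAP Ctrl. The list holds secreted proteins, the membrane protein Crim1 and proteins that act inside the cell, such as the ubiquitin ligases Smurf1 and Smurf2. All 11 expressed members had a negative log2 ratio, with a median of -0.63 over the mixed list, and the 5 that were at least 2-fold lower were the secreted Grem1, Nog, Fst, Fstl1 and Bmper. Gremlin (Grem1) had 1.06 FPKM in TAP Ctrl and 27.9 FPKM in iQNP Ctrl. Noggin (Nog) had 3.14 FPKM in TAP Ctrl and 45.8 FPKM in iQNP Ctrl. Both bind BMP ligands outside the cell and keep them from their receptors. Follistatin (Fst), which binds activins, was listed at 0 in TAP Ctrl and at 4.88 FPKM in iQNP Ctrl. The ligands and receptors themselves differed less: none of 16 expressed members was at least 2-fold higher, 4 were at least 2-fold lower, and the median was -0.11, which turned positive when the groups were scaled to the same sum of FPKM. Those 4 were the activin subunit Inhba (log2 ratio -2.32), the type I receptor Acvr1 (2.47 FPKM in TAP Ctrl, 9.18 FPKM in iQNP Ctrl), the procollagen protease Bmp1 (5.83 FPKM in TAP Ctrl, 17.6 FPKM in iQNP Ctrl) and Bmp2 (2.37 FPKM in TAP Ctrl, 6.70 FPKM in iQNP Ctrl).

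Genes of mitosis formed the counterpart on the proliferating side. Each of the 59 expressed members of the list was higher in TAP Ctrl, 36 of them at least 2-fold, and the log2 ratios ran between 0.38 and 2.38 with a median of 1.13. Top2a, the topoisomerase that untangles sister chromatids, had 346 FPKM in TAP Ctrl and 65.8 FPKM in iQNP Ctrl. Bub1, a kinase of the spindle checkpoint, had 98.2 FPKM in TAP Ctrl and 23.4 FPKM in iQNP Ctrl. Aspm, which organises spindle poles, had 83.0 FPKM in TAP Ctrl and 20.6 FPKM in iQNP Ctrl. Mitotic transcripts were also found in the quiescent culture: Cdk1, the kinase that starts mitosis, had 139 FPKM in TAP Ctrl and still 69.4 FPKM in iQNP Ctrl (log2 ratio 0.99), and its partner Ccnb1 had 74.3 FPKM in TAP Ctrl and 34.8 FPKM in iQNP Ctrl. Mki67 was not in the tables under that name.

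Many promoters of mitotic genes hold a cell cycle homology region, TTTGAA or TTCGAA, which the DREAM and MuvB complexes contact, beside CCAAT boxes bound by NF-Y. Searched on both strands, the homology region was in 36 of 49 matched windows (73.5%), against 12.7% of the windows of expressed genes and 19.5% of all windows, and CCAAT was in 38 (77.6%), against 38.4% of the windows of expressed genes and 37.7% of all windows. Over all 408 windows of genes at least 2-fold higher in TAP Ctrl the homology region was in 24.3%, and over the 688 windows of genes at least 2-fold lower it was in 11.0%. Top2a at chr10:84473044-84473343 on the minus strand and Aspm at chr13:53625334-53625633 on the plus strand have the largest differences among the mitotic genes that hold it. In both windows below, capitals mark either motif on either strand, and no base belongs to both motifs.
Top2a: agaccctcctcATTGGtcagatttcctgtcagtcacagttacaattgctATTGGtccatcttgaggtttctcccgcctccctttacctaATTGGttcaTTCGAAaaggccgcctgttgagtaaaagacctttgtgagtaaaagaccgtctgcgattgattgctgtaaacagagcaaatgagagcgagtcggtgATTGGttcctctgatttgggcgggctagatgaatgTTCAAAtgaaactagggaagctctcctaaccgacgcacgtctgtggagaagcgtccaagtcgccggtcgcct
Aspm: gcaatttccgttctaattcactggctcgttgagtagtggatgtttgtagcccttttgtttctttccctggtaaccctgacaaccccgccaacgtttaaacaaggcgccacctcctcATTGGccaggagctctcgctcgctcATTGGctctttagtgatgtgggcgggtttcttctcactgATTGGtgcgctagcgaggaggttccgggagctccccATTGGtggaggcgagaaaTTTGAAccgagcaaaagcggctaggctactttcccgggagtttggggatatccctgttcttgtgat

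Genes of DNA replication showed smaller differences in the same direction. Of 54 expressed members, 52 were higher in TAP Ctrl and 13 were at least 2-fold higher, with a median of 0.76. Geminin (Gmnn), which blocks a second round of origin licensing, had 33.1 FPKM in TAP Ctrl and 9.19 FPKM in iQNP Ctrl. Dbf4, the partner of the kinase that fires origins, had 45.9 FPKM in TAP Ctrl and 13.6 FPKM in iQNP Ctrl. The sliding clamp Pcna had 214 FPKM in TAP Ctrl and 103 FPKM in iQNP Ctrl. The helicase subunit Mcm2, with 63.6 FPKM in TAP Ctrl and 35.8 FPKM in iQNP Ctrl, stayed within 2-fold. The 2 members lower in TAP Ctrl were Rpa1 and Rfc3, named because of their sign after the values were seen, with log2 ratios of -0.64 and -0.40. E2F sites, spelled TTCGCGC or TTTGGCGC, were present on either strand in 20 of 46 matched windows (43.5%), against 4.44% of the windows of expressed genes and 2.08% of all windows. Gmnn at chr17:40729584-40729883 on the plus strand and Pole2 at chr6:93435312-93435611 on the minus strand, a subunit of DNA polymerase epsilon with 17.7 FPKM in TAP Ctrl and 6.29 FPKM in iQNP Ctrl, have the largest differences among the members that hold one, in capitals here. In Pole2 the match shares 5 bases with a GGCGCC.
Gmnn: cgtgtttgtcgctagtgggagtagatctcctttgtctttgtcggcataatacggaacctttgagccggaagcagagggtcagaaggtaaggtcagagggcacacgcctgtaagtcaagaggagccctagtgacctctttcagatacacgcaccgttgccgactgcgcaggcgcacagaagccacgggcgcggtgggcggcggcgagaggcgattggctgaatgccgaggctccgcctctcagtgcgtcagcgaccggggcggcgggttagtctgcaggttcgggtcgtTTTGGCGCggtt
Pole2: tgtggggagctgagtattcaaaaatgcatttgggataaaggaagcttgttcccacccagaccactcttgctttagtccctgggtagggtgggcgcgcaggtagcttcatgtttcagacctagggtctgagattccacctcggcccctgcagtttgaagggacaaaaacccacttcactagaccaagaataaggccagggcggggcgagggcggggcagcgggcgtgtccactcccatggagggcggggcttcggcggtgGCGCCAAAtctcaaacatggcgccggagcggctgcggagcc

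DNA repair and chromatin genes that work in S phase were also higher in TAP Ctrl. Of 31 expressed repair genes 29 had a positive log2 ratio and 10 were at least 2-fold higher, with a median of 0.80. The nuclease Exo1 had 9.89 FPKM in TAP Ctrl and 2.76 FPKM in iQNP Ctrl, and the checkpoint kinase Chek1 had 13.0 FPKM in TAP Ctrl and 4.34 FPKM in iQNP Ctrl. In all, 10 of 25 expressed histone genes were at least 2-fold higher and 2 at least 2-fold lower, with a median of 0.83. H2afz, the variant H2A.Z, had 172 FPKM in TAP Ctrl and 45.6 FPKM in iQNP Ctrl, whereas the linker histone Hist1h1d had 6229.8 FPKM in TAP Ctrl and 13158 FPKM in iQNP Ctrl. Hist1h1d has a listed span of only 105 bases, and its direction was reversed in RESTkd cells. It had 7174 FPKM in TAP RESTkd and 5277 FPKM in iQNP RESTkd. Among 33 chromatin modifiers, 5 were at least 2-fold higher and none at least 2-fold lower. They were the heterochromatin methyltransferases Suv39h1 and Suv39h2, the heterochromatin protein Cbx3, the remodeler Hells and the Polycomb methyltransferase Ezh2, which had 48.9 FPKM in TAP Ctrl and 20.7 FPKM in iQNP Ctrl.

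The regulators of G1 were split. Among 21 expressed cyclins, kinases and transcription factors of G1, 6 were at least 2-fold higher in TAP Ctrl and 4 at least 2-fold lower. Myc, a driver of growth and ribosome production, had 374 FPKM in TAP Ctrl and 83.2 FPKM in iQNP Ctrl. Skp2, which marks the inhibitor p27 for destruction, had 30.3 FPKM in TAP Ctrl and 7.36 FPKM in iQNP Ctrl, and cyclin E2 (Ccne2) had 86.7 FPKM in TAP Ctrl and 26.7 FPKM in iQNP Ctrl. The D cyclins differed from one another: Ccnd2 had 71.9 FPKM in TAP Ctrl and 325 FPKM in iQNP Ctrl, whereas Ccnd1 had 133 FPKM in TAP Ctrl and 169 FPKM in iQNP Ctrl. D cyclins bind Cdk4 and Cdk6 and carry mitogen signals to the retinoblastoma proteins.

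The Cip and Kip inhibitors of cyclin-dependent kinases, Cdkn1a, Cdkn1b and Cdkn1c, were nearly level at the RNA. Cdkn1a (p21) had 5.70 FPKM in TAP Ctrl and 6.61 FPKM in iQNP Ctrl, and Cdkn1b (p27) had 370.0 FPKM in TAP Ctrl and 365 FPKM in iQNP Ctrl. Cdkn1c (p57) had 11.2 FPKM in TAP Ctrl and 11.2 FPKM in iQNP Ctrl. Only Cdkn2b (p15), a target of TGF-beta signalling, was at least 2-fold lower in TAP Ctrl among the genes named Cdkn, with 15.3 FPKM in TAP Ctrl and 37.7 FPKM in iQNP Ctrl. Over the whole list of 27 inhibitors, retinoblastoma family and growth arrest genes, 2 were at least 2-fold higher and 5 at least 2-fold lower, with a median of -0.18. The other members lower in TAP Ctrl included the transcription factor Klf4 (3.00 FPKM in TAP Ctrl, 26.4 FPKM in iQNP Ctrl), the antiproliferative Btg2 (3.02 FPKM in TAP Ctrl, 15.5 FPKM in iQNP Ctrl) and Foxo1 (7.27 FPKM in TAP Ctrl, 23.4 FPKM in iQNP Ctrl). The 2 higher in TAP Ctrl were Cdkn3, a phosphatase of mitotic cells, and the retinoblastoma relative Rbl1, itself an E2F target. Of 20 expressed p53 response genes, 1 was at least 2-fold higher and 5 at least 2-fold lower.

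**Figure D2:**
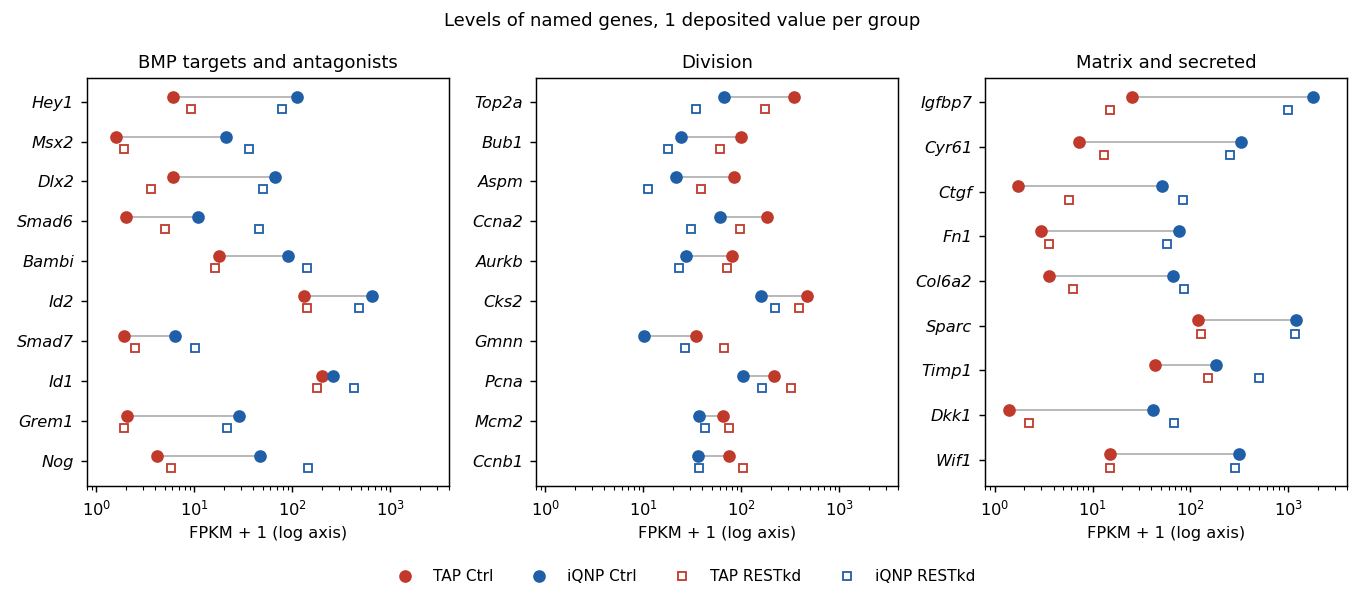
FPKM + 1 (log axis) of named genes in TAP Ctrl and iQNP Ctrl (filled circles joined by a line) and in TAP RESTkd and iQNP RESTkd (open squares), 1 deposited value per group and no error bars. BMP targets and antagonists and matrix genes lie lower in TAP Ctrl, genes of division lie higher, and the open squares keep the same order in every gene shown, of which Ccna2, Aurkb, Cks2 and Timp1 were picked for the plot after their values were seen.

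FGF2 was present in both media, and the list of FGF receptors, ERK feedback and response genes leaned to the quiescent side. Of 25 expressed members 2 were at least 2-fold higher in TAP Ctrl and 9 at least 2-fold lower, with a median of -0.46. Members within 2-fold included 4 named by the fixed rule. The transcription factor Etv5 had 46.0 FPKM in TAP Ctrl and 47.1 FPKM in iQNP Ctrl, and Etv4 had 9.60 FPKM in TAP Ctrl and 13.5 FPKM in iQNP Ctrl. The ERK phosphatase Dusp6 had 58.2 FPKM in TAP Ctrl and 61.6 FPKM in iQNP Ctrl, and the inhibitor Spry4 had 12.8 FPKM in TAP Ctrl and 16.2 FPKM in iQNP Ctrl. Those at least 2-fold lower included the receptor Fgfr3 (30.0 FPKM in TAP Ctrl, 134 FPKM in iQNP Ctrl), the ligand Fgf2 itself (2.49 FPKM in TAP Ctrl, 13.4 FPKM in iQNP Ctrl) and the early gene Ier3 (8.71 FPKM in TAP Ctrl, 96.1 FPKM in iQNP Ctrl). A list of stress genes and of immediate early genes, which respond within minutes to serum, matrix contact or handling, leaned the same way. None of its 33 members was at least 2-fold higher and 14 were at least 2-fold lower, with a median of -0.85. The zinc finger factor Egr2 had 0.769 FPKM in TAP Ctrl and 25.1 FPKM in iQNP Ctrl, the AP-1 subunit Junb had 7.89 FPKM in TAP Ctrl and 51.1 FPKM in iQNP Ctrl, and the quinone reductase Nqo1 had 11.1 FPKM in TAP Ctrl and 146 FPKM in iQNP Ctrl.

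Genes of the extracellular matrix and its receptors lay mostly on the quiescent side. Of 9 expressed integrins, 7 were at least 2-fold lower in TAP Ctrl, with a median of -1.70. Integrins tie cells to the matrix, and Itgb5 had 5.16 FPKM in TAP Ctrl and 44.3 FPKM in iQNP Ctrl. Itgb1, the integrin with the highest level in both groups, stayed within 2-fold, with 160 FPKM in TAP Ctrl and 218 FPKM in iQNP Ctrl. Of 16 expressed collagens, laminins and related matrix proteins, 9 were at least 2-fold lower and none higher, with a median of -1.18. Fibronectin (Fn1), the main ligand of several integrins, had 2.01 FPKM in TAP Ctrl and 76.0 FPKM in iQNP Ctrl, and the collagen VI chain Col6a2 had 2.63 FPKM in TAP Ctrl and 66.1 FPKM in iQNP Ctrl. Sparc, a secreted matrix-binding glycoprotein, had 119 FPKM in TAP Ctrl and 1192 FPKM in iQNP Ctrl. Defining fibroblast markers such as Col1a1 and Col3a1 were below 1 FPKM in both groups. On a wider list of 18 fibroblast and mural markers 5 were expressed, of which Postn (0.673 FPKM in TAP Ctrl, 18.6 FPKM in iQNP Ctrl) and Tagln (0.219 FPKM in TAP Ctrl, 11.5 FPKM in iQNP Ctrl) were at least 2-fold lower in TAP Ctrl and Pdgfra was at least 2-fold higher. Their part in the matrix differences was not tested.

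Matrix proteases, their inhibitors and matricellular proteins followed the same direction with exceptions. Of 25 expressed members 17 were at least 2-fold lower in TAP Ctrl and 3 at least 2-fold higher, with a median of -1.67. Cyr61 and Ctgf, matricellular proteins that are read as targets of the YAP pathway, had 6.25 and 0.750 FPKM in TAP Ctrl against 325 and 50.2 FPKM in iQNP Ctrl. Plaur, the receptor of urokinase, was listed at 0 in TAP Ctrl and at 17.1 FPKM in iQNP Ctrl. The 3 members higher in TAP Ctrl were the membrane metalloproteases Mmp15 (80.9 FPKM in TAP Ctrl, 31.8 FPKM in iQNP Ctrl) and Mmp16 (102 FPKM in TAP Ctrl, 30.8 FPKM in iQNP Ctrl) and the inhibitor Timp4 (21.8 FPKM in TAP Ctrl, 9.53 FPKM in iQNP Ctrl).

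Growth factors and their binding proteins were divided by family. Of 31 expressed members, 13 were at least 2-fold lower in TAP Ctrl and 4 at least 2-fold higher. Insulin-like growth factor binding proteins were prominent among those lower in TAP Ctrl: Igfbp7 had 24.3 FPKM in TAP Ctrl and 1769.7 FPKM in iQNP Ctrl, Igfbp3 had 35.0 FPKM in TAP Ctrl and 331 FPKM in iQNP Ctrl, and Igfbp5 had 4.29 FPKM in TAP Ctrl and 31.4 FPKM in iQNP Ctrl. The growth factor Igf1 itself was on the opposite side, with 28.8 FPKM in TAP Ctrl and 7.19 FPKM in iQNP Ctrl. Tgfa, a ligand of the EGF receptor, had 94.3 FPKM in TAP Ctrl and 22.7 FPKM in iQNP Ctrl, and pleiotrophin (Ptn) had 598 FPKM in TAP Ctrl and 217 FPKM in iQNP Ctrl.

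Among the Wnt genes, the secreted inhibitors carried the largest differences. Dkk1, which blocks the Wnt co-receptors, had 0.405 FPKM in TAP Ctrl and 40.7 FPKM in iQNP Ctrl, and Wif1, which binds Wnt ligands, had 14.3 FPKM in TAP Ctrl and 311 FPKM in iQNP Ctrl. Lgr5, the R-spondin receptor that marks stem cells of the gut, had a log2 ratio of 2.95, the largest positive one where neither group was under 1 FPKM and the mean was 5 FPKM or more, with 27.1 FPKM in TAP Ctrl and 2.63 FPKM in iQNP Ctrl. In all, 1 of 29 expressed Wnt genes was at least 2-fold higher and 8 were at least 2-fold lower, with a median of -0.41. In the Notch list 1 of 20 was at least 2-fold higher and 7 were at least 2-fold lower, with a median of -0.38. Hes1, an effector of Notch, had 3.67 FPKM in TAP Ctrl and 12.2 FPKM in iQNP Ctrl, and the receptor Notch2 had 7.23 FPKM in TAP Ctrl and 22.9 FPKM in iQNP Ctrl. Hes5 was under the minimum, at 1.28 FPKM in TAP Ctrl and listed at 0 in iQNP Ctrl.

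Lineage genes gave a mixed picture. Astrocyte markers were mostly lower in TAP Ctrl, 6 of 13 at least 2-fold and 1 at least 2-fold higher, with a median of -0.78. Gfap, the filament of astrocytes and of radial glia-like stem cells, had 1.06 FPKM in TAP Ctrl and 17.0 FPKM in iQNP Ctrl, and Vim had 1219.6 FPKM in TAP Ctrl and 3671 FPKM in iQNP Ctrl. The astrocyte water channel Aqp4 was near 0 in both groups, at 0.0661 FPKM in TAP Ctrl and 0.0469 FPKM in iQNP Ctrl. Oligodendrocyte lineage markers were mostly higher in TAP Ctrl, 9 of 19 at least 2-fold, with 3 at least 2-fold lower and a median of 0.88. The lineage factors Olig1 and Olig2 had 53.7 and 237 FPKM in TAP Ctrl against 9.22 and 57.6 FPKM in iQNP Ctrl. Pdgfra, the growth factor receptor of oligodendrocyte precursors, had 65.9 FPKM in TAP Ctrl and 12.5 FPKM in iQNP Ctrl.

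Genes associated with quiescent neural stem cells in the animal lay on both sides. Of 41 expressed members 15 were at least 2-fold lower in TAP Ctrl and 8 at least 2-fold higher, with a median of -0.69. Igfbp2, Sparc, Cpe, Timp3 and Id2 had the 5 most negative log2 ratios. Cpe, a protease that trims prohormones, had 1.97 FPKM in TAP Ctrl and 22.6 FPKM in iQNP Ctrl. Those higher in TAP Ctrl included Apoe (7.64 FPKM in TAP Ctrl, 2.40 FPKM in iQNP Ctrl) and the acyl-CoA synthetase Acsl3 (633 FPKM in TAP Ctrl, 285 FPKM in iQNP Ctrl). Fabp7, the fatty acid binding protein of radial glia, had 1011 FPKM in TAP Ctrl and 130.4 FPKM in iQNP Ctrl. Among 13 expressed proneural factors, 3 were at least 2-fold higher and 3 at least 2-fold lower, among them Dlx5 with 20.5 FPKM in TAP Ctrl and 278 FPKM in iQNP Ctrl. Of 27 expressed neuron markers, 2 were at least 2-fold higher and 8 at least 2-fold lower. Dcx, a microtubule protein of young neurons, had 2.33 FPKM in TAP Ctrl and 8.21 FPKM in iQNP Ctrl.

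**Figure D3:**
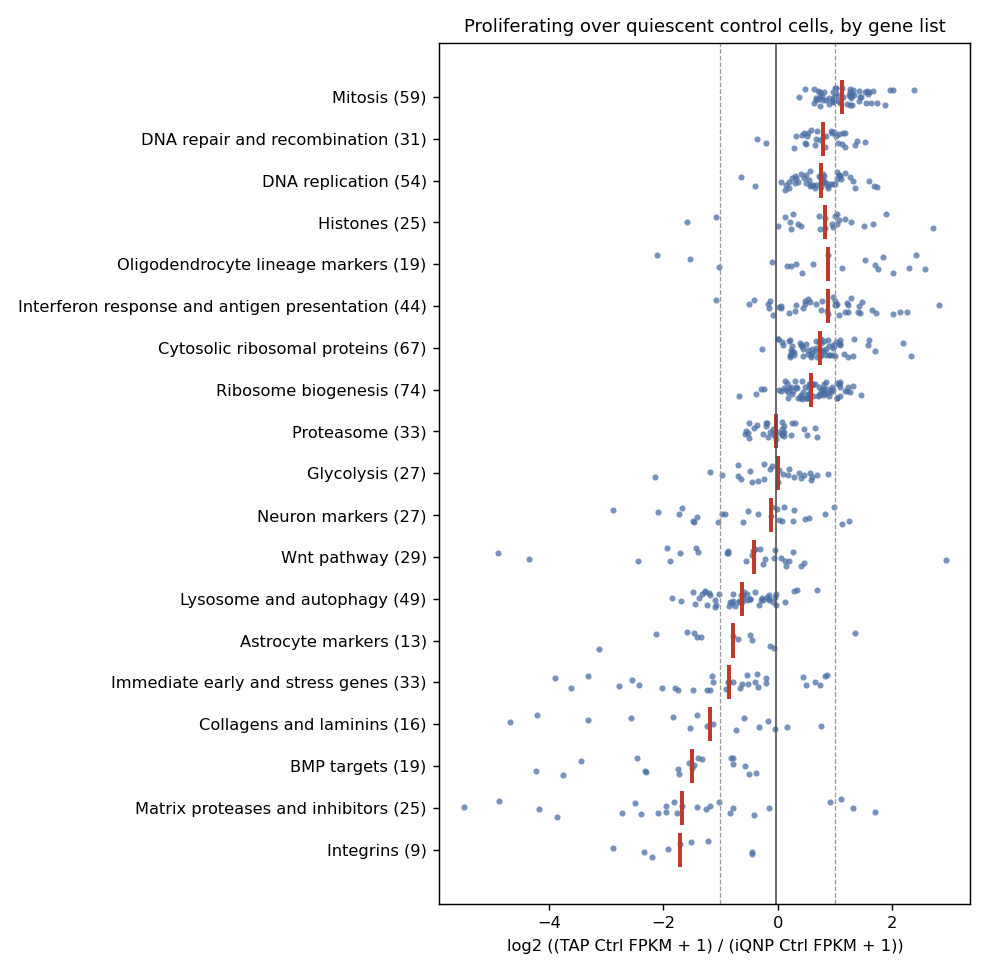
Log2 ratio of TAP Ctrl over iQNP Ctrl for every expressed member of 19 gene lists, 1 point per gene, with the number of expressed members in parentheses, the list median as a red bar, the median of all expressed genes (-0.03) as a solid line and 2-fold differences as dashed lines. Medians lie between 1.13 for mitosis and -1.70 for integrins, and the proteasome and glycolysis lie at the median of all genes.

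Genes of ribosome production were higher in the proliferating cells by small amounts. Of 74 expressed ribosome biogenesis genes 70 had a positive log2 ratio, 14 were at least 2-fold higher and none at least 2-fold lower, with a median of 0.59. Gar1, a subunit of the complex that modifies ribosomal RNA, had 27.7 FPKM in TAP Ctrl and 9.50 FPKM in iQNP Ctrl. Fibrillarin (Fbl), the methyltransferase of ribosomal RNA, had 109 FPKM in TAP Ctrl and 46.7 FPKM in iQNP Ctrl, and the nucleolar Npm1 had 332 FPKM in TAP Ctrl and 137 FPKM in iQNP Ctrl. Fbl has 7 named pseudogenes and Npm1 has 20, which can share their reads. In RESTkd cells the log2 ratio was 0.97 for Fbl and 0.28 for Npm1. All 20 expressed aminoacyl-tRNA synthetases had a positive log2 ratio and none passed 2-fold, with a median of 0.48. Translation factors had a median of 0.34. Only 2 of 49 were at least 2-fold higher, a smaller share than the 6.07% of all expressed genes. The cap-binding Eif4e was 1 of them, with 266 FPKM in TAP Ctrl and 108 FPKM in iQNP Ctrl.

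The cytosolic ribosomal proteins had a median of 0.74, with 66 of 67 expressed members above 0 and 15 at least 2-fold higher in TAP Ctrl, but their levels are uncertain. Each of the 67 has at least 1 named pseudogene that can share its reads, and 37 of them were at least 10 times lower in both control groups than in the RESTkd group of the same medium. Rps18 had 35.1 FPKM in TAP Ctrl and 6.87 FPKM in iQNP Ctrl, whereas TAP RESTkd had 3961 FPKM and iQNP RESTkd 2979.6 FPKM. Over all expressed genes 88 were at least 10 times lower in both control groups, and a further 31 genes under the minimum in controls had at least 10 FPKM in both RESTkd groups, among them the mitotic cyclin Ccnb2, named after its values were seen, with 0.555 FPKM in TAP Ctrl and 0.458 FPKM in iQNP Ctrl against 57.5 FPKM in TAP RESTkd and 23.6 FPKM in iQNP RESTkd. In RESTkd cells the median of the ribosomal proteins was 0.40 and none was past 2-fold.

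Of the 7 genes that the study followed up, 4 were at least 2-fold higher in TAP Ctrl, and the study chose these genes on the same samples, so the list is not independent evidence of a direction. Npm1 was given above. Rpl4, of the large ribosomal subunit, had 915 FPKM in TAP Ctrl and 409 FPKM in iQNP Ctrl, and the replication fork protein Mms22l had 16.5 FPKM in TAP Ctrl and 6.90 FPKM in iQNP Ctrl. Members within 2-fold were Rps6 with a log2 ratio of 0.98, the fork protein Tipin with 0.85 and the mitotic activator Cdc20 with 0.63. In RESTkd cells Mms22l was level, at 15.6 FPKM in TAP RESTkd and 16.5 FPKM in iQNP RESTkd.

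Lists of central metabolism differed little in median between the media. The respiratory chain list had a median of 0.01 with 2 of 70 expressed members at least 2-fold higher and 1 at least 2-fold lower, glycolysis had a median of 0.01 with 0 of 27 higher and 2 lower, and no proteasome subunit of 33 was past 2-fold. Control levels of some members are uncertain, as for the ribosomal proteins. Cox7a2 had 6.54 FPKM in TAP Ctrl and 11.6 FPKM in iQNP Ctrl, against 2845 and 2189.5 FPKM in TAP RESTkd and iQNP RESTkd. Pkm2, in the same order, had 3.05, 3.02, 662 and 973 FPKM, whereas Sdha had 132, 153, 89.7 and 113 FPKM. The respiratory chain median changed sign when genes with a named pseudogene were left out. Sterol and fatty acid synthesis leaned to TAP Ctrl, with 5 of 35 at least 2-fold higher, 1 at least 2-fold lower and a median of 0.39. Hmgcs1, an early enzyme of cholesterol synthesis, had 696 FPKM in TAP Ctrl and 304 FPKM in iQNP Ctrl, and Idi1 had 842 FPKM in TAP Ctrl and 341 FPKM in iQNP Ctrl. Lysosome and autophagy genes leaned to iQNP Ctrl, with 45 of 49 below 0, 15 at least 2-fold lower in TAP Ctrl, none at least 2-fold higher and a median of -0.63. Npc2, which carries cholesterol out of lysosomes, had 24.5 FPKM in TAP Ctrl and 90.8 FPKM in iQNP Ctrl, and the protease Ctsf had 8.21 FPKM in TAP Ctrl and 28.7 FPKM in iQNP Ctrl. The mitochondrial coactivator Ppargc1a had 1.06 FPKM in TAP Ctrl and 9.60 FPKM in iQNP Ctrl. Chaperones were split by kind: the mitochondrial chaperonins Hspd1 and Hspe1 had 170.1 and 301 FPKM in TAP Ctrl against 69.4 and 124 FPKM in iQNP Ctrl, whereas the small heat shock proteins Cryab and Hspb8 had 173 and 8.19 FPKM in TAP Ctrl against 3527 and 59.3 FPKM in iQNP Ctrl.

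Interferon-stimulated genes differed between the media in control cells and had a median near 0 in RESTkd cells. In control cells, 20 of 44 expressed members were at least 2-fold higher in TAP Ctrl and 1 at least 2-fold lower, with a median of 0.87. The antiviral GTPase Mx1 had 480.1 FPKM in TAP Ctrl and 67.3 FPKM in iQNP Ctrl, and the ubiquitin-like Isg15 had 2566 FPKM in TAP Ctrl and 629 FPKM in iQNP Ctrl. Bst2, which tethers budding viruses, had 43.7 FPKM in TAP Ctrl and 9.13 FPKM in iQNP Ctrl. In RESTkd cells none of the 44 was at least 2-fold higher in TAP RESTkd, 1 was at least 2-fold lower, and the median was -0.06. That gene was Gbp2, an interferon-induced GTPase named after its values were seen, with 88.4 FPKM in TAP RESTkd and 309 FPKM in iQNP RESTkd. Mx1 had 422 FPKM in TAP RESTkd and 349 FPKM in iQNP RESTkd, and Isg15 had 1818 FPKM in TAP RESTkd and 2709.6 FPKM in iQNP RESTkd. For Mx1, Isg15 and Bst2 the lowest of the 4 groups was iQNP Ctrl, and whether it belongs to the medium, to the electroporated vector or to these libraries was not tested.

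Rest itself, the repressor of neuronal genes that the series was made to study, had 27.8 FPKM in TAP Ctrl and 48.7 FPKM in iQNP Ctrl, a log2 ratio of -0.79. The study reports no difference in REST RNA or protein between iQNP and TAP cells, from data it does not show. Between the RESTkd groups the log2 ratio of Rest was -0.57, with 13.9 FPKM in iQNP RESTkd. Of 19 expressed genes of Rest and its corepressors, 1 (Ezh2) was at least 2-fold higher in TAP Ctrl and 1 (Cdyl) at least 2-fold lower, with a median of 0.11. Of 40 expressed textbook REST targets, 2 were at least 2-fold higher in TAP Ctrl and 12 at least 2-fold lower, with a median of -0.33. Nrcam, a neuronal adhesion molecule, had 6.97 FPKM in TAP Ctrl and 66.6 FPKM in iQNP Ctrl, and the neurofilament Nefm had 2.65 FPKM in TAP Ctrl and 14.5 FPKM in iQNP Ctrl. The glutamate receptor subunit Gria2 had 26.5 FPKM in TAP Ctrl and 115 FPKM in iQNP Ctrl, but 60.7 FPKM in TAP RESTkd and 62.0 FPKM in iQNP RESTkd. In control cells both Rest and these 3 targets were lower in TAP Ctrl. The 3 were named from the 12 members at least 2-fold lower, so the direction they share with Rest was fixed by that choice. Whether Rest sets their levels was not tested.

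The 8 RESTkd libraries give the same comparison of media in cells that share no library with the controls, although each RESTkd group shared its quantification run with the control group of its medium and also carried the hairpin. The labels give 1 preparation for all libraries, but the 88 genes that were at least 10 times lower in both controls, 37 of them ribosomal proteins, show that control and RESTkd libraries differed in level beyond the media. Hairpin and library cannot be told apart in that difference. Of the 570 genes at least 2-fold higher in TAP Ctrl, 253 (44.4%) were also at least 2-fold higher in TAP RESTkd than in iQNP RESTkd, where 4.17% of all expressed genes were. Of the 980 at least 2-fold lower in TAP Ctrl, 647 (66.0%) were also at least 2-fold lower in TAP RESTkd, where 9.19% of all expressed genes were. By sign alone, 526 of the 570 and 961 of the 980 lay on the same side. Those past 2-fold in opposite directions were Fxyd1 on the higher side and LOC501038 and Snhg4 on the lower side, 3 genes named after their values were seen. Across the 9383 genes the log2 ratios of control and RESTkd cells had a Pearson r of 0.84 and a Spearman rho of 0.80, a description over genes, which are not independent replicates.

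In RESTkd cells BMP targets had a median of -1.61 with the same 13 members past 2-fold among 16, and mitosis had a median of 1.11 with 30 members past 2-fold in both. All 9 matrix proteins and 14 of the 17 matrix proteases and inhibitors that were at least 2-fold lower in TAP Ctrl were so in TAP RESTkd. Id1, which was within 2-fold in control cells, had 177 FPKM in TAP RESTkd and 426 FPKM in iQNP RESTkd. Noggin had 4.84 FPKM in TAP RESTkd and 144 FPKM in iQNP RESTkd.

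**Figure D4:**
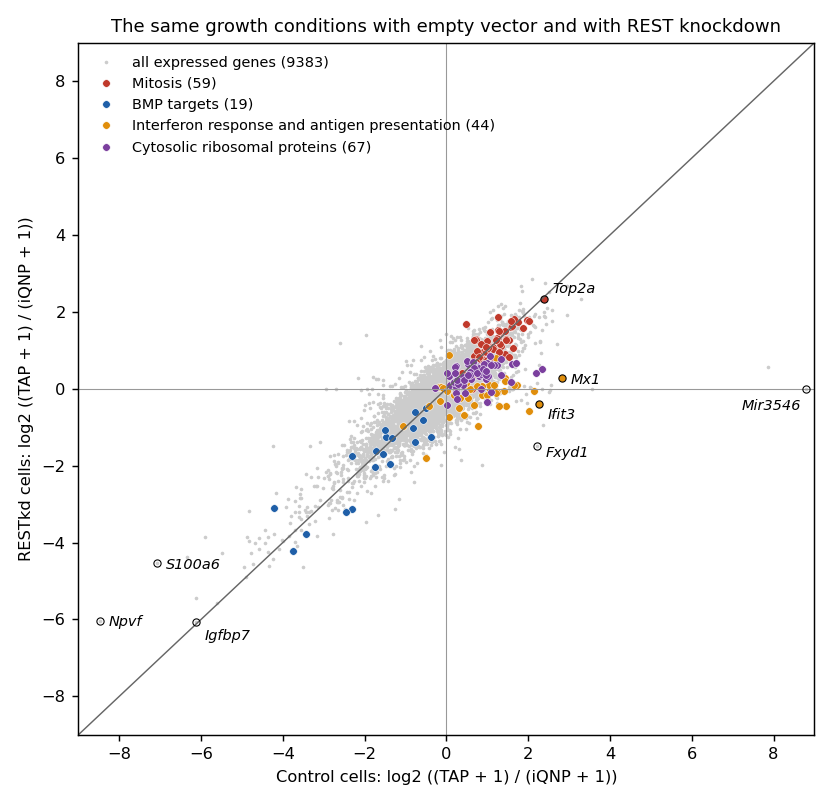
Log2 ratio of TAP over iQNP for each expressed gene in control cells (horizontal) and in RESTkd cells (vertical), 1 point per gene, with 4 gene lists in colour and equal ratios on the diagonal. Mitosis genes and BMP targets lie along the diagonal, the interferon genes (median 0.87 in control cells and -0.06 in RESTkd cells) lie along the horizontal line at 0, and the ribosomal proteins lie between.

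Among genes at 1 FPKM or more in each group and with a mean of 5 FPKM or more, the largest differences lay on the quiescent side. S100a6 and S100a4, small calcium-binding proteins, had 3.46 and 32.4 FPKM in TAP Ctrl against 598 and 2708 FPKM in iQNP Ctrl. Npy, a neuropeptide, had 152 FPKM in TAP Ctrl and 10699 FPKM in iQNP Ctrl, and TAP RESTkd had 154 FPKM against 6681 FPKM in iQNP RESTkd. Anxa1, a phospholipid-binding protein, had 2.37 FPKM in TAP Ctrl and 202 FPKM in iQNP Ctrl. Ngfr, the p75 neurotrophin receptor, had 4.65 FPKM in TAP Ctrl and 275 FPKM in iQNP Ctrl. The RF-amide neuropeptide gene Npvf was listed at 0 in TAP Ctrl and at 354 FPKM in iQNP Ctrl, and the natriuretic peptide Nppb at 0 in TAP Ctrl and 25.6 FPKM in iQNP Ctrl. No fold is given against a group listed at 0.

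On the proliferating side, after Lgr5 and Fabp7, the largest differences included the neuronal membrane glycoprotein Gpm6a (41.9 FPKM in TAP Ctrl, 6.53 FPKM in iQNP Ctrl), the ganglioside synthase St8sia1 (21.4 FPKM in TAP Ctrl, 3.29 FPKM in iQNP Ctrl) and the cystine transporter Slc7a11 (31.2 FPKM in TAP Ctrl, 5.47 FPKM in iQNP Ctrl). In all, 3 genes were listed at 0 in iQNP Ctrl and above 5 FPKM in TAP Ctrl. They were the microRNA precursor Mir3546 at 444 FPKM, the histone gene Hist1h2ail at 233 FPKM and the defensin Defa6 at 10.8 FPKM, and both Mir3546 and Defa6 were at 0 in TAP RESTkd and iQNP RESTkd. By genomic span, 14.2% of expressed genes spanning under 5000 bases were at least 2-fold lower in TAP Ctrl, against 7.16% of genes spanning 20000 to 50000 bases and 15.0% of those at 100000 bases or more. By level, 18.8% of genes with a mean of 1 to 2 FPKM and 7.40% of genes at 100 FPKM or more were at least 2-fold lower.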

How the data were processed

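RNA-seq of HCN cells was used from 4 control libraries, with 8 RESTkd libraries beside them. The authors deposited 2 Cuffdiff tables, each with the control and RESTkd group of 1 medium, whose values are FPKM estimated per gene and group over replicates. The submitters' processing notes name TopHat2, Cuffdiff and the rat build rn4, and versions are not given in the sources used here. The tables also hold the authors' fold changes, test statistics, p-values and significance calls, which were not used. Library depth is not used here. The labels do not say whether N1 and N2 were separate cultures, and the study's general statement of independent repeats does not single out the RNA-seq libraries. Tables were joined on gene symbol, a pseudocount of 1 was added, and genes with a mean of at least 1 FPKM over both controls were kept. No test was run.

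The members and gene lists were chosen with earlier results of these data known. Lists were matched by symbol or RefSeq synonym, and promoter windows by symbol (RefSeq, GRCr8). Genes were named by rule: the 20 largest differences each way among genes at 1 FPKM or more in both groups, with a mean of at least 5 FPKM, a symbol not starting with LOC, RGD or Olr, and the same direction in RESTkd cells; up to 5 members of each list past 2-fold each way; a fixed set of BMP, cell cycle, stem cell, FGF and followed-up genes with Rest; and up to 10 genes each way at 0 in 1 group and at least 5 FPKM in the other. Alternatives covered the pseudocount (0.1 and 5), the filter, scaling, a fold of 4, genes with status OK in both tables (a deposited column) and genes without a named pseudogene. Scripts used Python 3.11.15, pandas 2.3.3, numpy 2.4.6, scipy 1.17.1 and matplotlib 3.10.9 and were tested on simulated data. A few genes that the rule names are not reported here.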

Additional observations from a re-analysis of the deposited data

How the results depend on the processing

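No paired analysis was possible because the deposited tables hold 1 value per gene and group, and leaving out a replicate was not run for the same reason. A pseudocount of 5 left 312 genes at least 2-fold higher and 513 at least 2-fold lower in TAP Ctrl, and 464 genes past 2-fold the same way in control and RESTkd cells, against 900 with a pseudocount of 1. Scaling to the same sum of FPKM without cytosolic ribosomal proteins gave 870 higher and 733 lower, and scaling to the same sum of all genes gave 757 and 804. A fold of 4 left 53 higher and 245 lower. Leaving Rmrp out of the sum was chosen after seeing the data. Of 262 named genes, 55 were under 2-fold with a pseudocount of 5 and 10 with the same sum of FPKM. The medians of 6 lists changed sign under that scaling, among them BMP ligands and receptors, neuron markers and the proteasome. Library depth is unknown from FPKM, so low values carry no interval, and quantification run, medium and library cannot be told apart.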

Other observations

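Gene families outside the lists above were grouped by symbol after their values were seen, so their counts are descriptions. Calcium-binding proteins of the cell cortex were mostly lower in TAP Ctrl. Of 7 expressed S100 proteins, 5 were at least 2-fold lower and none at least 2-fold higher, with a median of -2.01, and S100a10 had 398 FPKM in TAP Ctrl and 1606 FPKM in iQNP Ctrl. Of 7 annexins, 5 were at least 2-fold lower and 1 at least 2-fold higher, with a median of -2.13. Anxa2 had 37.9 FPKM in TAP Ctrl and 258 FPKM in iQNP Ctrl, whereas Anxa6 had 7.15 FPKM in TAP Ctrl and 0.821 FPKM in iQNP Ctrl. Of 13 actin-binding LIM, myosin light chain and tropomyosin genes, 10 were at least 2-fold lower and none higher, with a median of -1.60. Tpm1, a tropomyosin that lines actin filaments, had 148 FPKM in TAP Ctrl and 638 FPKM in iQNP Ctrl, and the myosin light chain Myl9 had 6.61 FPKM in TAP Ctrl and 70.5 FPKM in iQNP Ctrl.

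Families of the nucleus leaned the opposite way. Of 39 splicing factors and hnRNPs 7 were at least 2-fold higher in TAP Ctrl and none at least 2-fold lower, with a median of 0.45, and of 15 nuclear pore proteins 3 were higher and none lower, with a median of 0.56. Nup210 had 13.2 FPKM in TAP Ctrl and 3.06 FPKM in iQNP Ctrl. Kinesins, which include motors of the spindle, had 8 of 22 at least 2-fold higher and 2 at least 2-fold lower. Guidance and adhesion families were split or near level. Of 19 semaphorins and plexins 3 were at least 2-fold higher and 5 at least 2-fold lower. Sema3d had 95.2 FPKM in TAP Ctrl and 38.8 FPKM in iQNP Ctrl, whereas Sema3a had 39.6 FPKM in TAP Ctrl and 139 FPKM in iQNP Ctrl. Of 44 cadherins and protocadherins, none was at least 2-fold higher and 4 at least 2-fold lower, with a median of -0.12, and N-cadherin (Cdh2) had 78.7 FPKM in TAP Ctrl and 212 FPKM in iQNP Ctrl.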
